A study of Homo sapiens with 4 samples.

Results

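The genes described here were 36 aminoacyl-tRNA synthetases, taken by gene symbol from the 20809 targets measured in the triple-negative breast cancer (TNBC) line MDA-MB-468 and in its drug-resistant subline. The 20 genes without the suffix 2 encode cytosolic enzymes, and the 16 genes with the suffix 2 encode the enzymes of the mitochondrion. All 36 were in the files, and 35 had enough reads to be tested, the exception being PARS2. In MDA-MB-468/R, TARS and SARS2 were higher than in MDA-MB-468/WT, RARS2 was lower, and the other 32 tested members did not pass the test. Among all 12115 tested genes, 5.35% were higher and 10.6% lower.

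Aminoacyl-tRNA synthetases attach each amino acid to its own tRNA, the step in which the genetic code is read chemically. The cytosolic enzymes supply the ribosomes that translate nuclear messages, several of them held together in a multisynthetase complex, whereas a separate set, encoded in the nucleus and imported, supplies the ribosomes of the mitochondrion. GARS and KARS are exceptions, since each gene makes the glycyl or lysyl enzyme of both compartments, and EPRS joins the glutamyl and prolyl enzymes in 1 protein. Many cytosolic synthetase genes are known targets of ATF4, the transcription factor of the amino acid response, and WARS is a classical interferon-gamma induced gene.

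The study made drug-resistant TNBC sublines in search of markers of resistance carried by extracellular vesicles, and their RNA was compared with that of the parental lines. MDA-MB-468 is a basal-type line grown from human breast cancer, and MDA-MB-468/R is the subline kept for 6 months in adriamycin (doxorubicin), taxotere (docetaxel) and cytoxan (cyclophosphamide) at rising doses and then left to recover. MDA-MB-468/WT is the parental line with the genotype WT and the treatment none, although a protocol field of these samples names the same drugs. Each group had 2 libraries, no source states that they were separate cultures, so every p-value rests on the spread between libraries, which may be technical, and 1 selected subline stands for the resistant state. The study's other lines, HCC1395 and MDA-MB-231, were not analysed here.

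Values were deposited as log2 of RPM (reads on a target per 1000000 reads on all targets) plus 1, from an assay that amplifies 1 short piece of each transcript, so a gene was compared between libraries and not with other genes. The libraries held 6833000 to 7982000 reads, at which 3 reads, the limit that a count of 0 allows, correspond to 0.376 to 0.439 RPM. Such limits cover counting error only. The replicates of MDA-MB-468/R differed more from each other (SD of the log2 difference 0.355 over 12115 tested genes) than those of MDA-MB-468/WT (0.21). Of the markers of the line, EGFR (4770 to 5712 RPM), KRT5, KRT8, KRT18, EPCAM and CDH1 were present in every library. All 6 had a log2 fold change below 0, and KRT5 passed the test as lower (-0.765, adjusted p = 0.0021, limma). VIM, a mesenchymal marker, read 3.29 and 2.46 RPM in the resistant against 65.7 and 71.0 RPM in the parental libraries (-4.17, adjusted p = 4.7e-05, limma). ZEB1, listed with VIM, stayed at or below 0.292 RPM and was not tested. Of the receptor genes listed as absent or low, ESR1 and PGR stayed at or below 3.23 RPM. ERBB2 read 13.4 and 10.5 RPM in MDA-MB-468/R against 9.63 and 6.89 RPM in MDA-MB-468/WT. It did not pass the test (0.49, adjusted p = 0.178, limma). Of 9 measured markers of leukocytes, endothelium, fibroblasts and red cells, 4 (PTPRC, CD3E, VWF and DCN) had 0 reads in every library, and the sum of all 9 was 29.6 and 24.1 RPM in MDA-MB-468/R against 42.7 and 43.0 RPM in MDA-MB-468/WT, most of it CD68, which passed as lower (-0.825, adjusted p = 0.0163, limma), and COL1A1. The part of these marker differences in the synthetase results was not tested. In such bulk RNA, fewer cells of a kind and less RNA per cell cannot be told apart.

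The promoters of the cytosolic enzymes are shown first because many carry the amino acid response element to which ATF4 and its partners bind. RefSeq promoters (GRCh38.p14, 250 bases before to 50 bases after each listed start) were found for 30 of the 36 members, 16 cytosolic and 14 mitochondrial, and not for DARS, LARS, VARS, YARS, AARS2 and VARS2. RefSeq writes AARS as AARS1, CARS as CARS1 and so on for the cytosolic enzymes. The element was searched on both strands as TGATGNAAN, where N is any base. It occurred in 7 of 16 cytosolic and in 1 of 14 mitochondrial members, and in 4.45% of all 27305 genes with a promoter sequence. Each line below gives 30 bases around the element, 5′ to 3′ on the strand named, with the element in capitals.

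AARS, chr16:70289675-70289704, + strand: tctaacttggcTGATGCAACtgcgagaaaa
CARS, chr11:3057407-3057436, + strand: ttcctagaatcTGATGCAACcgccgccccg
GARS, chr7:30594834-30594863, - strand: ggctcggagcaTGATGAAATcgccgcgtaa
IARS, chr9:92293692-92293721, + strand: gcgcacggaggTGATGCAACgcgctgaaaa
MARS, chr12:57488053-57488082, - strand: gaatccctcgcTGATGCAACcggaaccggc
NARS, chr18:57621803-57621832, - strand: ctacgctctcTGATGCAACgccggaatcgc
TARS, chr5:33440956-33440985, - strand: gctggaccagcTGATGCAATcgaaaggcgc
YARS2, chr12:32756075-32756104, - strand: tccacactgcTGATGGAAAaattaagttta

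The elements of CARS, IARS, MARS and TARS began within 14 bases of a listed start, and that of AARS lay 188 to 180 bases before it. Among these members TARS rose, and AARS, CARS, GARS, IARS, MARS and NARS had log2 fold changes of -0.08, -0.165, -0.03, -0.13, -0.15 and -0.035, none of which passed the test. The median log2 fold change was -0.08 over the 7 cytosolic members with the element and 0.145 over the 9 without it. This order did not hold without MDA-MB-468/R replicate 2, when the medians were 0.11 and 0.105. A match to these letters is a description of the sequence and not a bound site, and a missing match says only that the letters are not in this window.

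The members that changed on the mitochondrial side share their start regions with other genes. So do FARSB, HARS, HARS2, KARS, WARS, EARS2 and FARS2, which did not pass the test. TARS starts 61 bases from TARS1-DT and FARSB 340 bases from LOC124907985, neither of which was analysed here. The share of all genes with such a neighbour was not determined, and a link to the calls was not tested. RARS2 starts 147 bases from ORC3, which encodes a subunit of the origin recognition complex, and SARS2 starts 180 bases from MRPS12, which encodes a mitochondrial ribosomal protein and was not analysed here. HARS and HARS2, the cytosolic and mitochondrial histidyl enzymes, start 84 bases apart on opposite strands. The bases between the starts are given 5′ to 3′ on the strand of the first gene named, with capitals where the letters CCAAT, or ATTGG for the other strand, occur. At least 1 CCAAT was found in 39.7% of all genes' promoters and 4 or more in 1.2%. The promoters of SARS2 and of CARS2, which did not pass the test, each held 4. This search was added after the promoters had been seen.

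RARS2 and ORC3, chr6:87589988-87590134, - strand: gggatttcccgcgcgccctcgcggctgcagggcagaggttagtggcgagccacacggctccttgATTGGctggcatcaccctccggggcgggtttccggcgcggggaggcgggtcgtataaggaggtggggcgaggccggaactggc
SARS2 and MRPS12, chr19:38930764-38930943, - strand: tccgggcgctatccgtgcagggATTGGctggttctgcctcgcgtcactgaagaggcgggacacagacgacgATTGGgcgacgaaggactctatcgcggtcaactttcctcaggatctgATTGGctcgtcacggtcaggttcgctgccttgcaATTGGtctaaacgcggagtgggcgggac
HARS2 and HARS, chr5:140691371-140691454, + strand: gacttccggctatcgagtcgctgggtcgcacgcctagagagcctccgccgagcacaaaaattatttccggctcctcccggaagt

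ORC3 read 45.2 and 40.4 RPM in MDA-MB-468/R against 52.4 and 44.6 RPM in MDA-MB-468/WT, with overlapping groups (log2 fold change -0.175, standard error 0.14, adjusted p = 0.441 by limma), beside the fall of RARS2 described below. HARS and HARS2 had log2 fold changes of 0.17 and 0.04, and neither passed the test. Both are close paralogs, and whether the amplicons tell their reads apart was not tested.

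Over the 35 tested members, 2 were higher and 1 was lower in MDA-MB-468/R at an adjusted p of at most 0.05 (limma, Benjamini-Hochberg over all tested genes), against 5.35% of all tested genes higher and 10.6% lower. None reached the fold change of 2.5 that, with an adjusted p of at most 0.05, defines a DEG. In all, 395 genes met both limits. By an unadjusted p of at most 0.05, 9 of the 35 passed, beside 3787 of all 12115 tested genes. For 14 members the pair of MDA-MB-468/R libraries exceeded the MDA-MB-468/WT pair without overlap and for 4 it lay below, against 26.1% and 32.2% of all tested genes, and the groups overlapped for 17. The median log2 fold change of the members was 0.145, with a range of -0.435 to 0.68, against -0.03 over all tested genes. In size, 33 of the 35 log2 fold changes were under 0.5, which is the scale on which the synthetases differed between the lines. A p that misses the threshold does not show that a gene did not differ, and 95% intervals are therefore given with the values.

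**Figure D1:**
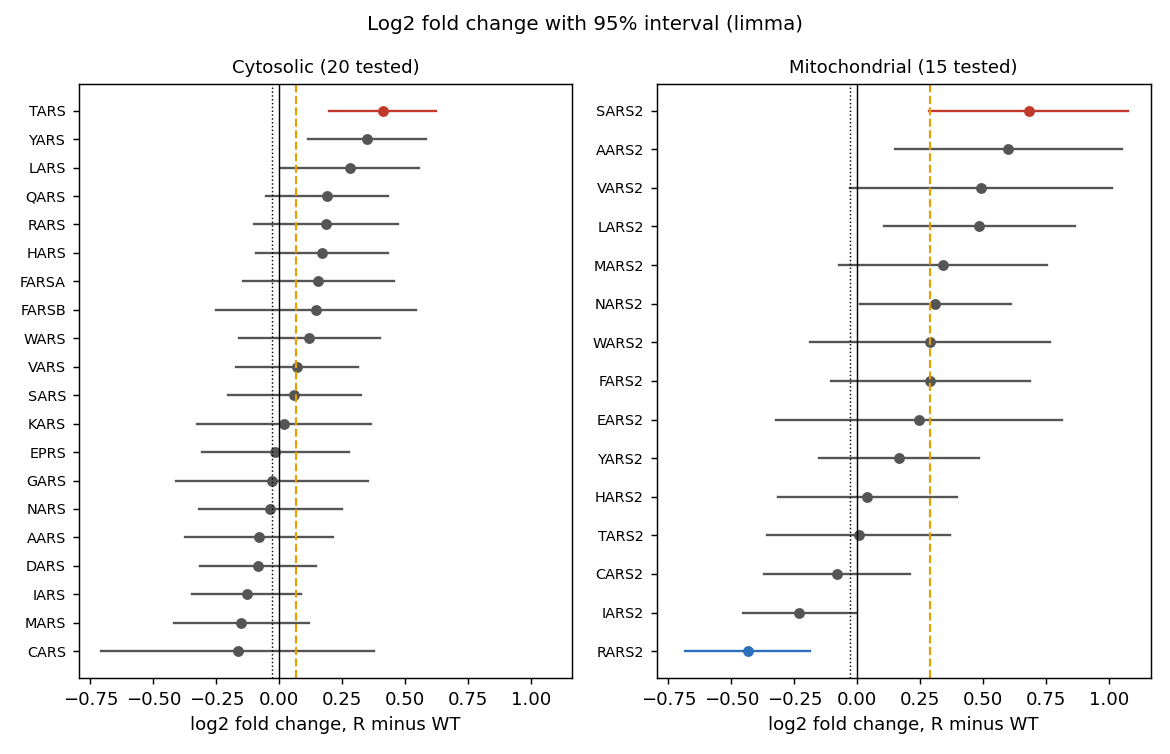
Log2 fold change of each tested synthetase, MDA-MB-468/R minus MDA-MB-468/WT, with its 95% interval from limma on the horizontal axis, for the 20 cytosolic (left) and 15 mitochondrial (right) members. Red marks members that were higher (TARS, SARS2), blue the member that was lower (RARS2), the dashed line the median of the class (0.065 and 0.29) and the dotted line the median of all tested genes (-0.03).

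Of the 20 cytosolic enzymes, TARS rose, none fell, and 19 did not pass the test. Over all tested genes, 5.35% were higher and 10.6% lower. TARS, which charges tRNA with threonine, read 595 and 599 RPM in MDA-MB-468/R against 448 and 451 RPM in MDA-MB-468/WT. The groups did not overlap, with means of 597 ± 2.93 and 449 ± 2.21 RPM (SD, n = 2). In both groups replicate 1 minus replicate 2 was -0.01 on the log2 scale, the smallest step of the deposited values. These SDs are therefore a poor gauge of the spread. The level of TARS was 1.33-fold higher (95% interval 1.15 to 1.54). Its log2 fold change was 0.41, with a standard error of 0.09 and an adjusted p of 0.0226 by limma. Its adjusted p was 0.026 without MDA-MB-468/R replicate 1 and 0.0291 without replicate 2, and the call was lost without MDA-MB-468/WT replicate 1 (0.40) or replicate 2 (0.383), when the spread of every gene rested on the MDA-MB-468/R pair. It was also lost, at 0.0909, without the mean trend in limma.

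YARS, the tyrosyl enzyme, and LARS, the leucyl enzyme that also takes part in leucine sensing, came next among the increases. YARS read 228 and 248 RPM in MDA-MB-468/R against 184 and 189 RPM in MDA-MB-468/WT, without overlap, and its log2 fold change of 0.35 (95% interval 0.12 to 0.58) had an adjusted p of 0.0551 by limma. LARS read 107 and 123 RPM against 96.7 and 92.1 RPM, also without overlap, with a log2 fold change of 0.28 (0.0053 to 0.55) and an adjusted p of 0.153. Without MDA-MB-468/R replicate 1, the adjusted p of YARS was 0.0349 and that of LARS 0.0497, and RARS, the arginyl enzyme, passed as well at 0.0394. Without MDA-MB-468/R replicate 2, YARS passed at 0.0485 and LARS did not (0.138).

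The largest decreases of the cytosolic enzymes were those of CARS, MARS and IARS, the cysteinyl, methionyl and isoleucyl enzymes. CARS read 9.27 and 5.87 RPM in MDA-MB-468/R against 8.32 and 8.51 RPM in MDA-MB-468/WT, so that the resistant replicates lay on either side of both parental ones. Its log2 fold change was -0.165, with the widest interval of the class (-0.71 to 0.38, adjusted p = 0.68, limma). For MARS the levels were 467 and 555 RPM against 544 and 587 RPM, with overlap, giving a log2 fold change of -0.15 (-0.42 to 0.12, adjusted p = 0.423). IARS read 361 and 371 RPM against 401 RPM in both parental libraries, without overlap, and its difference of -0.13 (-0.34 to 0.08) had an adjusted p of 0.383. DARS, the aspartyl enzyme, was the other cytosolic member whose resistant libraries both lay below the parental ones, at 164 and 162 RPM against 178 and 169 RPM.

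The remaining 13 cytosolic members had log2 fold changes between -0.08 (AARS) and 0.19 (QARS). HARS, QARS and RARS, the histidyl, glutaminyl and arginyl enzymes, had both resistant libraries above both parental ones, and 10 members overlapped. GARS and KARS, which serve both compartments, had log2 fold changes of -0.03 (95% interval -0.41 to 0.35) and 0.02 (-0.33 to 0.37). GARS read 384 and 271 RPM in MDA-MB-468/R, beside 346 and 314 RPM in MDA-MB-468/WT, a spread between the resistant replicates wider than the difference between groups. KARS showed the opposite order, with 192 and 255 RPM in MDA-MB-468/R against 207 and 230 RPM. EPRS, with 361 and 454 RPM against 404 and 415 RPM, had likewise no shift beyond its replicates (log2 fold change -0.015).

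Of the 15 tested mitochondrial enzymes, SARS2 rose, RARS2 fell, and 13 did not pass the test. The shares over all tested genes were 5.35% higher and 10.6% lower. SARS2, the seryl enzyme, read 24.1 and 19.97 RPM in MDA-MB-468/R against 12.5 and 14.1 RPM in MDA-MB-468/WT, without overlap. Its means were 22.04 ± 2.93 and 13.3 ± 1.12 RPM (SD, n = 2). The log2 fold change of 0.68 (standard error 0.17), or 1.60-fold with a 95% interval of 1.22 to 2.11, had an adjusted p of 0.0344 by limma. This call was lost when any 1 library was left out, with adjusted p-values of 0.0822 and 0.0518 without MDA-MB-468/R replicate 1 and 2, and of 0.407 and 0.303 without MDA-MB-468/WT replicate 1 and 2. It was also lost, at 0.052, when no filter on low values was applied.

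RARS2 charges mitochondrial tRNA with arginine, and inherited defects of it cause a hypoplasia of the pons and cerebellum. It read 115 and 128 RPM in MDA-MB-468/R against 162 and 167 RPM in MDA-MB-468/WT, the resistant libraries lying well below the parental ones. The means were 122 ± 9.0 and 164 ± 3.24 RPM (SD, n = 2). RARS2 fell by 0.435 on the log2 scale (standard error 0.11), to 0.74 of the parental level with a 95% interval of 0.622 to 0.879, at an adjusted p of 0.0327 by limma. It still passed without MDA-MB-468/R replicate 1 (0.0412) or replicate 2 (0.0329), but not without MDA-MB-468/WT replicate 1 (0.385) or replicate 2 (0.417), nor without the mean trend (0.0924).

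AARS2 and VARS2, the alanyl and valyl enzymes, had the next largest increases of the mitochondrial class. AARS2 read 17.8 and 13.8 RPM in MDA-MB-468/R against 10.96 and 9.13 RPM in MDA-MB-468/WT, without overlap, with a log2 fold change of 0.60 (95% interval 0.15 to 1.05) and an adjusted p of 0.0784 by limma. VARS2 read 21.2 and 13.6 RPM against 11.3 and 12.4 RPM, where the first resistant library stood apart and the second lay just above the parental pair. Its log2 fold change of 0.49 (-0.03 to 1.01, adjusted p = 0.183) passed at 0.0496 without MDA-MB-468/R replicate 2 and was 0.19 without replicate 1. LARS2, the leucyl enzyme, was close behind at 0.485 (0.11 to 0.86, adjusted p = 0.086), with 15.1 and 16.5 RPM against 11.1 and 10.9 RPM and little spread in either group.

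On the decreasing side, IARS2, the isoleucyl enzyme, read 271 and 268 RPM in MDA-MB-468/R against 306 and 328 RPM in MDA-MB-468/WT. These groups did not overlap, and the log2 fold change of -0.23 (95% interval -0.46 to -0.0048) had an adjusted p of 0.152 by limma. CARS2, the cysteinyl enzyme, read 84.0 and 71.0 RPM against 81.1 and 82.3 RPM, with overlap and a log2 fold change of -0.08 (-0.37 to 0.21, adjusted p = 0.71). No other tested mitochondrial member had a negative log2 fold change. The other 8, EARS2, FARS2, HARS2, MARS2, NARS2, TARS2, WARS2 and YARS2, ranged from 0.005 (TARS2) to 0.34 (MARS2), and FARS2, MARS2, NARS2 and YARS2 among them had both resistant libraries above both parental ones.

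PARS2, the prolyl enzyme, was covered by 9 and 1 reads in the resistant and by 6 and 3 reads in the parental libraries, below the minimum of 10 reads in at least 2 libraries. A difference in PARS2 was not detectable at this depth.

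**Figure D2:**
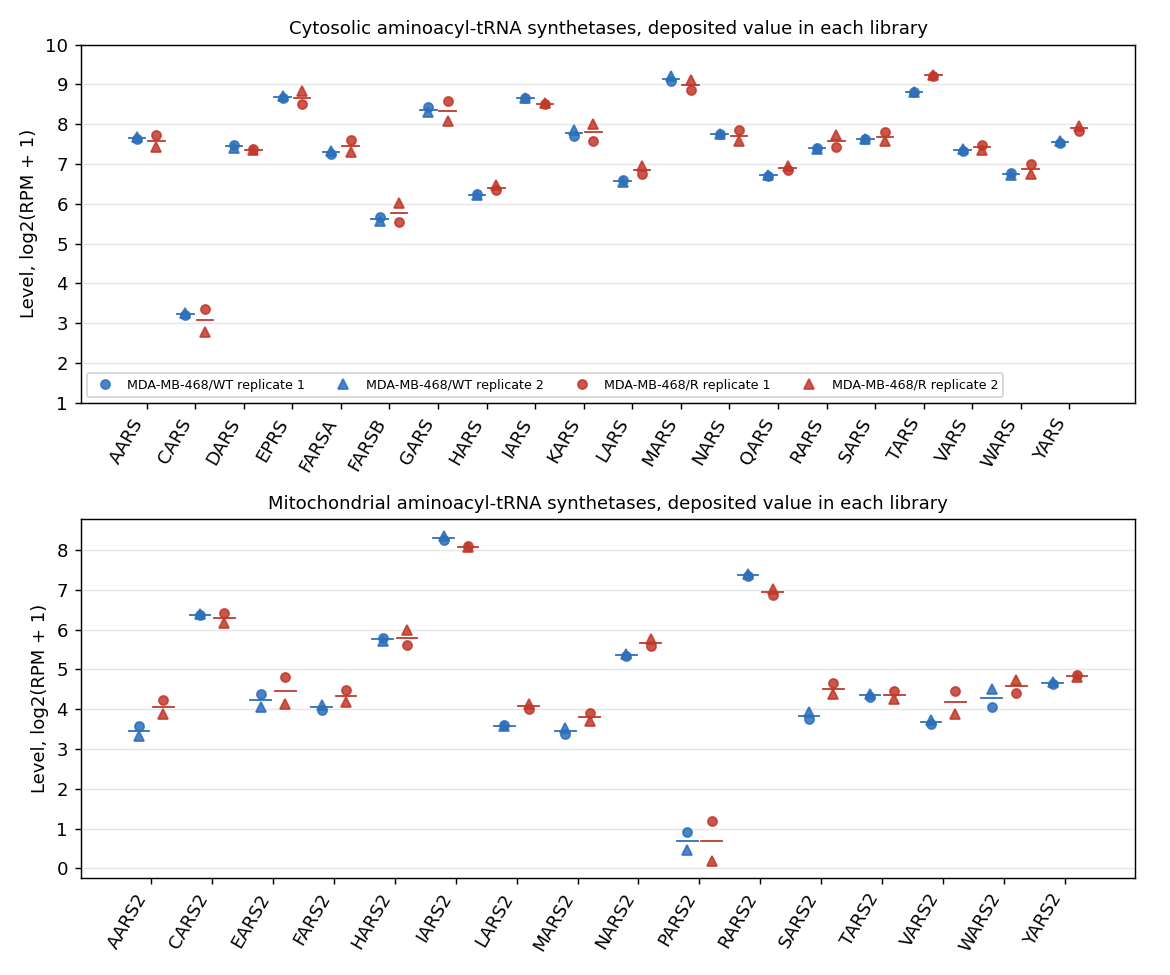
Deposited level, log2(RPM + 1), of each cytosolic (top) and mitochondrial (bottom) synthetase in the 4 libraries, blue for MDA-MB-468/WT and red for MDA-MB-468/R, with circles for replicate 1, triangles for replicate 2 and a short bar at the mean of each pair. TARS and SARS2 show both red points above both blue ones, and RARS2 shows both below. The red pairs of CARS, FARSB, GARS, EARS2 and VARS2 are spread widely, and that of PARS2, which was not tested, most widely.

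Set side by side, the classes differed in the share of members on the positive side, while 5616 of all 12115 tested genes were above 0. The signs of 12 members turned when 1 library was left out, as given below. Of the cytosolic members 12 of 20 had a log2 fold change above 0 and 8 below, with a median of 0.065 and a range of -0.165 to 0.41, and of the mitochondrial members 12 of 15 were above 0 and 3 below, with a median of 0.29 and a range of -0.435 to 0.68. Both resistant libraries exceeded both parental ones for 6 of 20 cytosolic and 8 of 15 mitochondrial members, and the reverse held for 2 in each class, beside 26.1% and 32.2% of all tested genes. The cytosolic median lay 0.225 below the mitochondrial one on the log2 scale. Members of a list are not replicates, and this difference was not tested. It was -0.2375 to -0.1025 when each library was left out in turn, and the value nearest to 0 was the one without MDA-MB-468/R replicate 2. Without GARS and KARS the cytosolic median was 0.095. The median standard error was 0.12 for the cytosolic and 0.16 for the mitochondrial members.

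The classes were also compared by their mean level in each library. The cytosolic mean log2(RPM + 1) was 7.41 and 7.40 in MDA-MB-468/R and 7.33 and 7.34 in MDA-MB-468/WT, and the mean of the 15 tested mitochondrial members was 5.12 and 5.01 against 4.83 and 4.87. The distance between the class means was thus 2.29 and 2.39 in the resistant libraries and 2.5 and 2.46 in the parental ones. Summed RPM, which the most abundant members dominate, gave another picture. The cytosolic sum was 4447 and 4506 RPM in MDA-MB-468/R against 4242 and 4295 RPM in MDA-MB-468/WT, whereas the mitochondrial sum was 775 and 763 RPM in MDA-MB-468/R against 792 and 824 RPM in MDA-MB-468/WT. RARS2 and IARS2, both lower in the resistant libraries, had more reads than any other mitochondrial member, so the sum of the class was lower while its mean log2 level was higher.

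Of the 15 amino acids with a separate enzyme in each compartment among the tested members, the mitochondrial enzyme had the larger log2 fold change for 10 and the cytosolic enzyme for 5, with a median difference of 0.17. Without MDA-MB-468/R replicate 2 the split was 8 to 7 and the median difference 0.11. For alanine the log2 fold change was 0.60 for AARS2 and -0.08 for AARS, and for serine it was 0.68 for SARS2 and 0.06 for SARS. The methionyl pair differed in the same sense, with 0.34 for MARS2 and -0.15 for MARS, as did the valyl pair with 0.49 for VARS2 and 0.07 for VARS. The reverse held most clearly for arginine, with -0.435 for RARS2 and 0.185 for RARS, and for threonine, with 0.005 for TARS2 and 0.41 for TARS. Thus each of the 3 members that changed had a counterpart that did not pass the test. The differences within pairs were not tested. Both enzymes had a negative value for isoleucine (-0.13 and -0.23) and cysteine (-0.165 and -0.08), and both a positive one for leucine, histidine, phenylalanine, tryptophan, tyrosine, serine, valine and threonine.

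**Figure D3:**
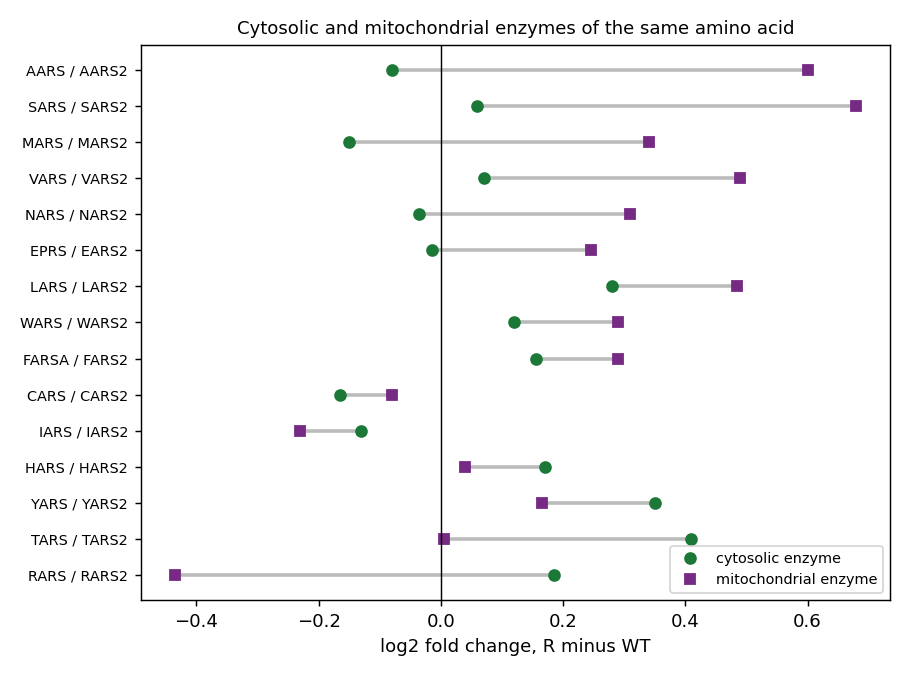
Log2 fold change, MDA-MB-468/R minus MDA-MB-468/WT, on the horizontal axis for the cytosolic enzyme (green circle) and the mitochondrial enzyme (purple square) of the same amino acid, joined by a grey line and ordered by their difference. The square lies to the right of the circle in 10 of 15 pairs, and the longest lines belong to AARS2, SARS2 and RARS2.

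In both classes the resistant replicates differed more widely from each other than the parental ones. The standard errors also drew on the spread of all tested genes, with 5.41 prior beside 2 residual degrees of freedom. Among the cytosolic members, MDA-MB-468/R replicate 1 minus replicate 2 ranged from -0.47 to 0.58 on the log2 scale (SD 0.301) and exceeded 0.2 in size for 13 of 20, whereas the MDA-MB-468/WT difference ranged from -0.15 to 0.14 (SD 0.0693) and exceeded 0.2 for none. For the mitochondrial members the resistant range was -0.38 to 0.67 (SD 0.309), with replicate 1 higher for 10 of 15, and the parental range was -0.46 to 0.34 (SD 0.182). CARS, VARS2 and EARS2 were among the members with replicate 1 well above replicate 2 in MDA-MB-468/R, and FARSB had replicate 2 well above replicate 1. TARS differed by no more than 0.01 in either group. Leaving out 1 library turned the sign of 12 members, AARS, CARS, CARS2, EARS2, EPRS, FARSB, GARS, HARS2, KARS, NARS, SARS and TARS2, none of which had passed the test.

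**Figure D4:**
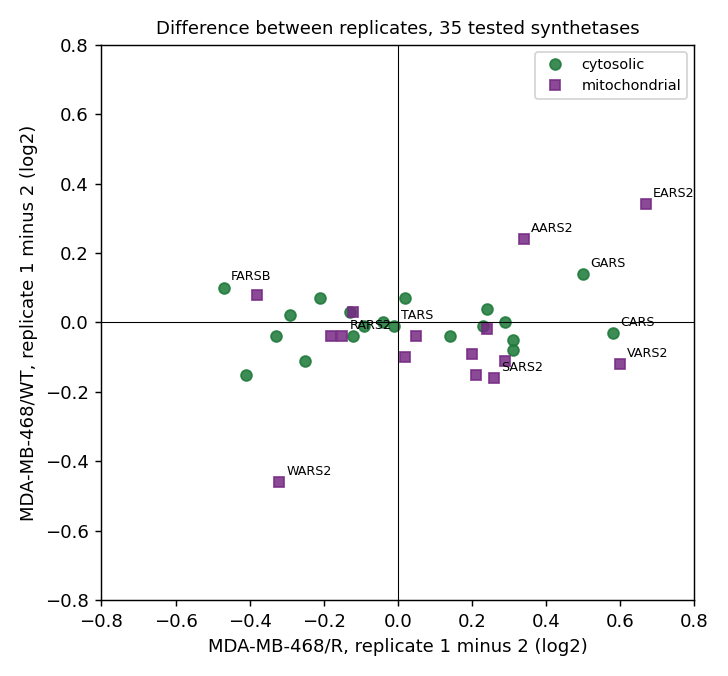
Difference between replicates 1 and 2 of MDA-MB-468/R (horizontal axis) and of MDA-MB-468/WT (vertical axis) for the 35 tested synthetases, in log2 units on the same scale, with green circles for cytosolic and purple squares for mitochondrial members. The points spread from -0.47 to 0.67 horizontally, while vertically all but WARS2, EARS2 and AARS2 lie within 0.2 of 0.

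The cytosolic members were further divided by what is known of the enzymes. The 8 enzymes of the multisynthetase complex (EPRS, IARS, LARS, MARS, QARS, KARS, RARS and DARS) had a median log2 fold change of 0.0025 with none past the test, and the 12 free enzymes had a median of 0.095 with TARS past it. These medians turned with the resistant library left out, being 0.1875 for the complex, with 2 members higher, and 0 for the free enzymes without MDA-MB-468/R replicate 1, and -0.1125 and 0.1575 without replicate 2, so no order of complex and free enzymes can be read from them. The complex's scaffold proteins AIMP1, AIMP2 and EEF1E1 had log2 fold changes of 0.12, 0.165 and 0.18, and none passed. By catalytic fold, the 10 class I enzymes had a median of 0.095 with none past the test and the 10 class II enzymes a median of 0.04 with 1. Without MDA-MB-468/R replicate 1, 3 class I enzymes were higher and the class II median was -0.0275. The 12 members known as ATF4 targets had a median of -0.0225, with TARS past the test, 5 above 0 and 7 below. The sign of that median was not stable, since it was 0.15 without MDA-MB-468/R replicate 2, 0.0025 without MDA-MB-468/WT replicate 1 and 0.0145 under RLE scaling, and 3 and 2 of these members were higher without MDA-MB-468/R replicate 1 and 2. The medians over all libraries stand beside -0.03 over all tested genes.

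Of 13 other genes of the amino acid stress response, 2 rose, 2 fell and 9 did not pass the test, beside 5.35% of all tested genes higher and 10.6% lower. The median log2 fold change was 0.075, and -0.12 without MDA-MB-468/R replicate 2. PHGDH, which opens serine synthesis, read 430 and 349 RPM in MDA-MB-468/R against 266 and 271 RPM in MDA-MB-468/WT (log2 fold change 0.525, adjusted p = 0.0262, limma). SLC3A2, the heavy chain of amino acid exchangers, read 310 and 332 RPM against 245 and 251 RPM (0.37, adjusted p = 0.041). EIF2AK4, the kinase GCN2 that senses uncharged tRNA, read 19.8 and 18.6 RPM against 28.4 and 29.9 RPM (-0.58, adjusted p = 0.0319), and SESN2, a leucine sensor, read 19.97 and 21.5 RPM against 29.7 and 30.1 RPM (-0.51, adjusted p = 0.0463). These 4 did not overlap between groups, and all 4 calls were lost without MDA-MB-468/WT replicate 1 or replicate 2, with adjusted p-values of 0.35 to 0.484. The call of SESN2 was also lost without MDA-MB-468/R replicate 1 (0.0555) and that of EIF2AK4 without replicate 2 (0.0537). Without the mean trend the calls of PHGDH (0.0843), SLC3A2 (0.122) and SESN2 (0.0565) were lost, and with no filter on low values those of SLC3A2 (0.0506) and SESN2 (0.061). ATF4 itself had a log2 fold change of 0.135, and ASNS, TRIB3 and CHAC1 had 0.17, 0.10 and -0.535, none of which passed. PSAT1, PSPH, SLC7A5, SLC7A11 and DDIT3 did not pass either.

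Downstream of charging, elongation factors carry the loaded tRNA to the ribosome. EEF1D, a subunit of the exchange factor for eEF1A, rose from 454 and 467 RPM in MDA-MB-468/WT to 854 and 814 RPM in MDA-MB-468/R. Its log2 fold change was 0.855 (adjusted p = 0.0013 by limma, standard error 0.09). It was the only one of 6 tested elongation factors to pass, the others ranging from -0.21 (EEF1A1) to 0.505 (TUFM), and its call was lost without MDA-MB-468/WT replicate 1 or replicate 2, with an adjusted p of up to 0.15. Beside this, 5.35% of all tested genes were higher and 10.6% lower. The 6 factors had a median log2 fold change of 0.3775, which was 0.5 without MDA-MB-468/R replicate 2. The mitochondrial glutamine amidotransferase, which makes glutaminyl-tRNA in the organelle in place of a synthetase, had log2 fold changes of 0.19 for QRSL1, 0.24 for GATC and 0.445 for PET112 (its B subunit), with none past the test. None of 7 genes of tRNA export, maturation and proofreading passed either (median 0.155; 1 higher and 1 lower without MDA-MB-468/R replicate 1), nor did PSTK, SEPSECS or TARSL2 (median -0.145).

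WARS, the tryptophanyl enzyme, was set beside other genes induced by interferon-gamma. Before its second listed start WARS carries both a gamma-activated site, searched as TTCNNNGAA, and an interferon-stimulated response element, searched as GAAA, any 2 bases and GAAA, each on both strands. These were found in 9.38% and 4.38% of all genes' promoters, and among the members the first also in CARS, TARS, PARS2 and WARS2 and the second in EARS2. The stretch from 148 to 40 bases before the start of WARS is printed on the strand of the gene with both matches in capitals.

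WARS, chr14:100375387-100375495, - strand: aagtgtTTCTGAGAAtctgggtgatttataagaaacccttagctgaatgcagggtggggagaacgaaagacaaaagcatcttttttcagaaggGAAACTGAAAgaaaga

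WARS read 126 and 107 RPM in MDA-MB-468/R against 108 and 105 RPM in MDA-MB-468/WT, with overlapping groups and a log2 fold change of 0.12 (95% interval -0.16 to 0.40, adjusted p = 0.546, limma). Of 6 tested interferon-gamma genes 4 fell and none rose, beside 10.6% of all tested genes lower and 5.35% higher, and the median log2 fold change was -1.05. IRF1, a transcription factor at the head of the response, read 32.8 and 19.0 RPM in MDA-MB-468/R against 69.03 and 65.3 RPM in MDA-MB-468/WT (-1.39, adjusted p = 0.0084). PSMB9, GBP1 and TAP1, which encode an immunoproteasome subunit, a guanylate-binding protein and a peptide transporter, fell by 1.26, 1.125 and 0.895 on the log2 scale, with adjusted p-values of 0.0011, 0.0018 and 0.0016. GBP2 (0.22) did not pass, nor did CXCL10 (-0.975, adjusted p = 0.0648), which had few reads. The interval of WARS held the fold change of GBP2 and did not reach those of CXCL10 and the 4 genes that fell. Those 4 were picked by their fall, and a difference between them and WARS was not tested. Their calls were lost without MDA-MB-468/WT replicate 1 or replicate 2, where the highest adjusted p was 0.22 for IRF1, and held without either resistant library.

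**Figure D5:**
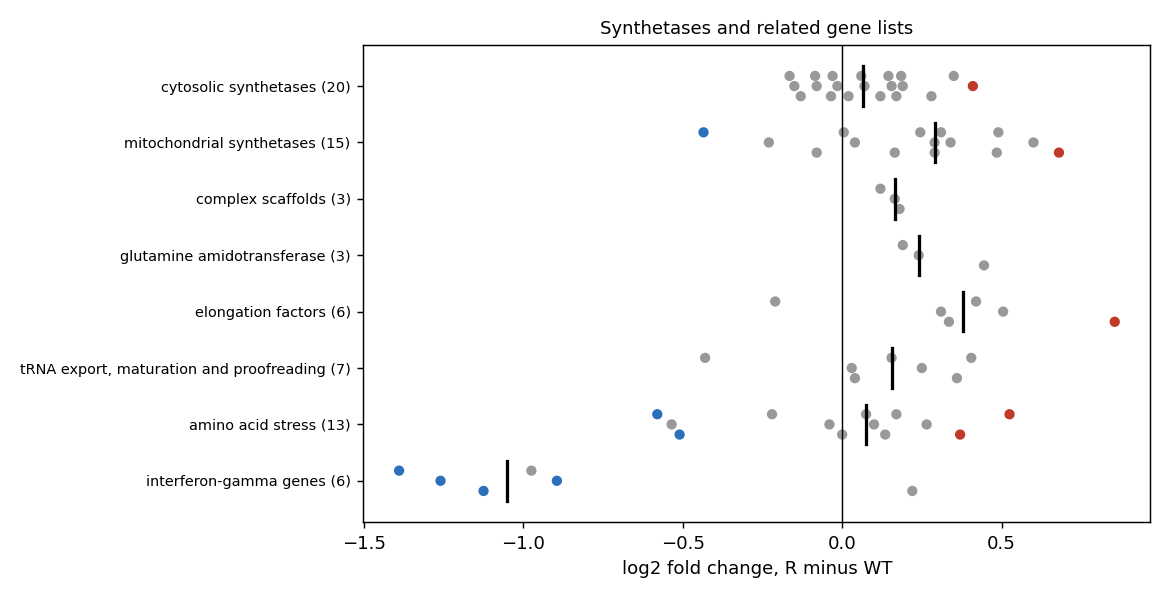
Log2 fold change, MDA-MB-468/R minus MDA-MB-468/WT, of each tested gene (points) for the synthetases and the related lists, with the number of tested genes in brackets and a black bar at the median of each list. Red and blue points passed the test as higher or lower, and the interferon-gamma genes have their median at -1.05 while those of the cytosolic and mitochondrial synthetases lie at 0.065 and 0.29.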

How the data were processed

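Total RNA of MDA-MB-468/R (2 libraries) and its parental MDA-MB-468/WT (2 libraries) was measured with the Ion AmpliSeq transcriptome kit, mapped by the authors with the Torrent Mapping Alignment Program. Bowtie2, bedtools and edgeR appear in the submitters' processing notes, and the genome build is not given in the sources used here. The authors deposited log2 values of RPM plus 1, rounded to 2 decimals. Each library summed to about 1000000 RPM, and values of up to 20 reads were whole reads within 0.1, which gave the depth of each library. The 4 entries of 2 duplicated symbols were left out.

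The deposited log2 values were fitted by group with limma 3.58.1 in R 4.3.3 (empirical Bayes with a mean trend, two-sided) on 12115 genes with at least 10 reads in at least 2 libraries, with Benjamini-Hochberg adjustment over all of them. There were 2 residual and 5.41 prior degrees of freedom. A fold change is on the log2(RPM + 1) scale, which understates changes of low genes. DEGSeq, used by the authors, counts only sampling error and was kept as an alternative. The procedure was tested on simulated data.

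The members and lists were chosen with earlier results of these data known, and the CCAAT search was added after the promoters were seen. A further member of the interferon-gamma list, which did not pass the test, is not reported here and was left out of its counts and median. Named in full were the members that passed and, in each class, the 3 largest increases and decreases. LARS2, DARS, RARS, HARS, QARS and the other members given with single values were added after their values were seen.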

Additional observations from a re-analysis of the deposited data

How the results depend on the processing

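Pseudocounts of 4 and 0.25 RPM, a filter of 50 reads and limma-voom on recovered reads changed no call of a member. RLE scaling added YARS (2 cytosolic members higher), moved the cytosolic median to 0.10, lost the call of SESN2 (0.0588), and turned the signs of EPRS, GARS and NARS (0.0221, 0.00702 and 0.00196). With no filter on low values no mitochondrial member was higher (0), and without the mean trend no cytosolic member was higher (0) and no mitochondrial member lower (0). The random sampling model, whose p-values hold counting error only, called 2900 genes higher and 3562 lower, with 9 higher and 2 lower in each class. The replicate numbers did not pair the samples (correlation of deviations 0.009, 2 pairs). With a replicate block, 498 genes were higher and 1115 lower, and the calls of TARS, SARS2 and RARS2 were lost (0 in each class, adjusted p 0.0648, 0.051 and 0.0648), as were those of SESN2 (0.075), SLC3A2 (0.0914) and EIF2AK4 (0.0547), which left 1 of the 13 amino acid stress genes higher and 0 lower. Leaving out each library in turn, where a lone library is assumed to vary like the other group, gave 10 to 751 genes higher and 51 to 1304 lower, 0 to 4 cytosolic members higher, 0 to 1 mitochondrial member higher and 0 to 1 lower, class medians of 0 to 0.1175 (cytosolic) and 0.19 to 0.33 (mitochondrial), and a difference between them of -0.2375 to -0.1025. The low counts over all genes came without either MDA-MB-468/WT library. In these fits the log2 fold change ranged from -0.235 to 0.075 for AARS, -0.455 to 0.125 for CARS, -0.20 to 0.04 for CARS2, -0.09 to 0.58 for EARS2, -0.18 to 0.15 for EPRS, -0.09 to 0.38 for FARSB, -0.28 to 0.22 for GARS, -0.15 to 0.23 for HARS2, -0.185 to 0.225 for KARS, -0.18 to 0.11 for NARS, -0.055 to 0.175 for SARS and -0.095 to 0.105 for TARS2. Over 13 alternatives TARS and RARS2 passed in 9 and SARS2 in 7. The causes were not tested.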

Other observations

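Beyond HARS, ORC3 and the genes not analysed here, the neighbours that share a start region with a synthetase were TERF2IP beside KARS, LYRM4 beside FARS2, UBFD1 beside EARS2 and WDR25 beside WARS. LYRM4, which encodes a protein of mitochondrial iron-sulfur cluster assembly, starts 56 bases from FARS2 and read 25.5 and 36.8 RPM in MDA-MB-468/R against 22.8 RPM in both MDA-MB-468/WT libraries (log2 fold change 0.415, adjusted p = 0.183, limma), beside 0.29 for FARS2. TERF2IP, which encodes a telomere protein, had a log2 fold change of -0.135 beside 0.02 for KARS, and UBFD1 had 0.115 beside 0.245 for EARS2. WDR25 had too few reads to be tested. The promoter of CARS2 also held 4 CCAAT, as that of SARS2 did, and CARS2 had a log2 fold change of -0.08.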
